A study of Mus musculus with 6 samples.

Results

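Ten-eleven translocation (TET) enzymes and the genes that write, copy and remove DNA methylation were followed in cultured mouse bone marrow cells after knockdown of Tet1 and Tet2 by siRNA. The set has 10 genes out of the 36870 symbols in the expression table. They are Tet1, Tet2 and Tet3, the DNA methyltransferase genes Dnmt1, Dnmt3a and Dnmt3b, the methyltransferase cofactor Uhrf1, the glycosylase Tdg, and the isocitrate dehydrogenase genes Idh1 and Idh2. They were chosen by name, each had 1 row in the table, and 9 of them reached the mean of 0.1 RPKM required for testing.

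DNA methyltransferases add a methyl group to cytosine, with Dnmt3a and Dnmt3b placing new marks and Dnmt1, guided by Uhrf1, copying them onto newly made strands. TET enzymes oxidise methylcytosine with 2-oxoglutarate and iron, and Tdg cuts out the most oxidised forms so that base excision repair can restore plain cytosine. Idh1 in the cytosol and Idh2 in mitochondria make 2-oxoglutarate, and in the marrow several of these genes are best known from their mutations in blood cancers.

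RNA sequencing covered 6 libraries of C57BL/6 cells called bone marrow mesenchymal stem cells (BMMSCs), which are marrow cells selected by adherence to plastic. There were 3 control libraries and 3 libraries from cells given Tet1 and Tet2 siRNAs together, and the question here is how the targeted genes, their paralogs and the rest of the methylation machinery stood in the treated cells. The sample labels put the cells at passage 2 while the methods say passage 1, and control cells received non-targeting siRNA by the treatment protocol while the sequencing methods speak of vehicle. Nothing in the sources used here says whether the 3 libraries of a group came from separate animals or cultures, so p-values measure the spread among these libraries. No library had only 1 of the siRNAs, so the effects of Tet1 and Tet2 siRNA cannot be told apart. Levels are given as RPKM, read density normalised to gene length and library depth, so that genes of different length can be compared. The depth was estimated from the low values as between 32400000 and 38400000 reads per library.

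The label of the cells was checked against markers of stromal cells, macrophages and other marrow lineages. All 14 macrophage markers were at 1 RPKM or more in every library. Their summed level was 8662, 8210 and 6644 RPKM in the control libraries and 17624, 16350 and 14504 RPKM in the siRNA libraries, a 2.06-fold ratio of the means. Much of this rise was in Lyz2, the lysozyme of macrophages, the most abundant at 4439 against 11321 RPKM (adjusted p = 0.001005, limma, and 0.455 after quantile normalization). Quantile normalization gives all libraries the same set of values, so it can hide a change in a very abundant gene. With a library left out, the log2 fold change of Lyz2 was between 1.20 and 1.46. Without Lyz2, a choice made after the values were seen, the sum was 3399 RPKM in control and 4838 RPKM in siRNA libraries, a 1.42-fold ratio. Fcgr1, an antibody receptor, went the other way, from 109 to 27.8 RPKM (adjusted p = 3.09e-06, limma). The pan-leukocyte gene Ptprc was at 52.6 RPKM on average in the control group and 53.0 RPKM in the siRNA group. The data thus go against a purely stromal label, since summed macrophage markers, with or without Lyz2, exceeded summed stromal markers in every library, and the cells are called cultured marrow cells here.

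The 14 stromal markers summed to 1045, 975 and 1505 RPKM in the control libraries and to 136, 181 and 272 RPKM in the siRNA libraries, with Col1a1 the most abundant in the control libraries. The groups did not overlap, and the sum was 5.98-fold lower after siRNA. Of the 11 stromal markers tested, 9 were called lower (81.8%) and 0 higher by limma at an adjusted p under 0.05 (0 also at an unadjusted p under 0.05). Of the 14 macrophage markers 8 were called higher (57.1%) and 3 lower (21.4%), where 29.8% of all genes tested were called lower and 14.7% higher. Thy1, Lepr and Lum, which mark marrow stroma or fibroblasts, were too low to be tested in these cells. In bulk RNA, fewer cells of a type and less RNA per cell cannot be told apart, and this holds for every gene below. What part the marker changes have in the changes of the methylation genes was not tested.

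Other marrow lineages were scarce. Summed neutrophil markers were between 3.40 and 3.54 RPKM in the control libraries and between 9.27 and 16.2 RPKM in the siRNA libraries, with S100a9 at the lowest listed value of 0.001 in every library. The most abundant, S100a8, was called higher, at 1.95 against 12.7 RPKM, while Camp, the only other one tested, was called lower, at 1.45 against 0.058 RPKM (adjusted p = 4.13e-05 and 5.52e-05, limma). Endothelial markers summed to 2.66 RPKM on average in control and 1.44 RPKM in siRNA libraries, and of 4 tested 2 were called lower (50%) and 1 higher (25%), beside 29.8% and 14.7% of all genes. Only 1 of these was called lower without siRNA replicate 1 or 2 and after quantile normalization, beside 22.7%, 22.7% and 19.8% of all genes. Kdr, the most abundant, fell from 1.58 to 0.604 RPKM (adjusted p = 0.000310, limma), and Pecam1 rose from 0.175 to 0.377 RPKM (adjusted p = 0.0272, limma), a call lost in 5 other fits with an adjusted p of up to 0.0826. Lymphoid markers summed to 0.601 RPKM on average in control and 1.19 RPKM in siRNA libraries, with overlapping ranges. Cd79b, the only one tested, rose from 0.533 to 1.14 RPKM (adjusted p = 0.0217, limma), a call lost without control replicate 2 (0.0743), siRNA replicate 2 (0.0711) or siRNA replicate 3 (0.0590). Of the erythroid markers, Klf1 did not exceed 0.203 RPKM in any library, Hbb-bt was at 0.001 throughout and Epb42 was not found in the table.

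The abundance of the 10 genes spanned more than 3 orders of magnitude in the control libraries. By group mean the order was Idh1, Idh2, Dnmt1, Uhrf1, Dnmt3a, Tet3, Tdg, Tet2, Dnmt3b and Tet1. Each neighbouring pair was separated by its replicate ranges except Idh2 and Dnmt1, at 54.6 and 51.5 RPKM, whose ranges overlapped. In the siRNA libraries the order differed in 2 places, and no neighbouring ranges overlapped. Dnmt3a stood above Uhrf1 there, at 22.1 against 16.0 RPKM, and Dnmt3b above Tet2, at 0.493 against 0.266 RPKM.

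**Figure D1:**
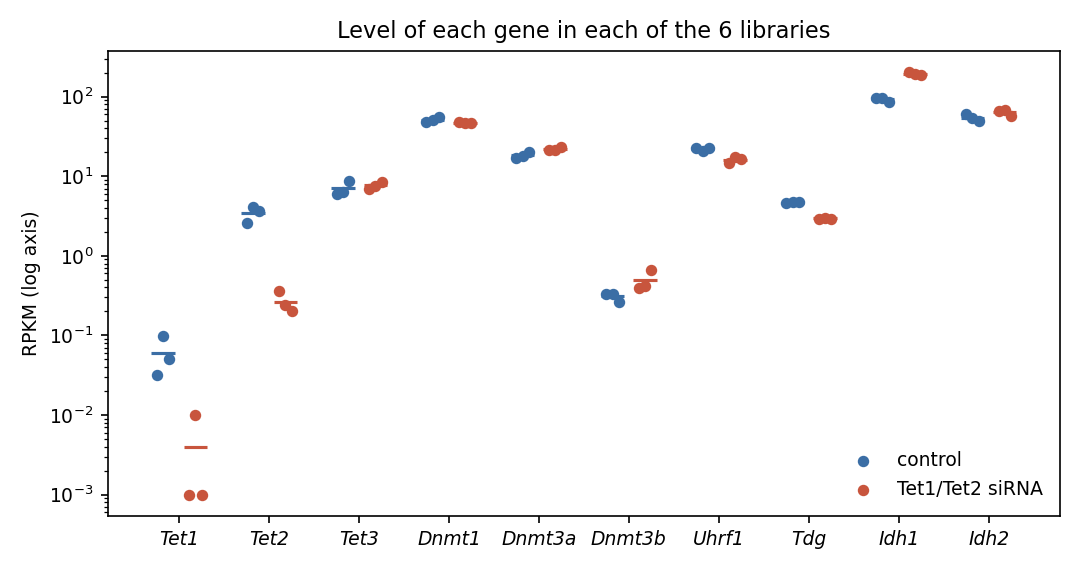
RPKM of the 10 genes on a log axis, with 1 point per library (3 control, 3 Tet1/Tet2 siRNA) and a bar at the group mean. Tet2 fell from a mean of 3.45 to 0.266 RPKM while Idh1 went from 92.6 to 195 RPKM, and the groups overlap only for Tet3 and Idh2.

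Groups did not overlap for 8 of the 10 genes, and for 7 of the 9 tested, against 55.7% of all 13266 genes tested. Lower in every siRNA library were Tet1, Tet2, Dnmt1, Uhrf1 and Tdg, and higher in every siRNA library were Dnmt3a, Dnmt3b and Idh1. A gene was called when its adjusted p from limma, fitted across all genes tested with Benjamini-Hochberg correction, was under 0.05. By this rule 3 genes were called lower, Tet2, Tdg and Uhrf1, where 29.8% of all genes tested were called lower. Another 2 were called higher, Idh1 and Dnmt3a, where 14.7% of all genes tested were called higher. At an unadjusted p under 0.05 together with a fold change over 2 on the same scale, only Tet2 was lower and only Idh1 was higher, where 5.63% and 0.95% of all genes tested were. With so many genes called by the adjusted p, the number of calls among the 10 is not particular to them. The sizes differ more, since Idh1 had the 103rd highest and Tet2 the 222nd lowest log2 fold change of the 13266 genes. These ranks are on the scale of log2(RPKM + 1), which understates changes of low genes such as Tet2. With a pseudocount of 0.01 the log2 fold change was -3.66 for Tet2 and 1.08 for Idh1.

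**Figure D2:**
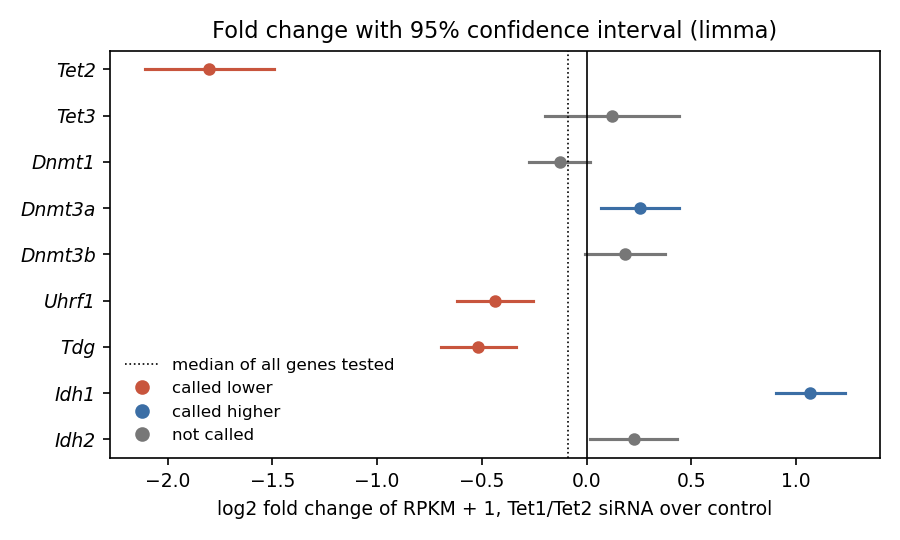
Log2 fold change of RPKM + 1 for the 9 genes tested, Tet1/Tet2 siRNA over control, with 95% confidence intervals from limma and the median of all genes tested (-0.09) as a dotted line. Tet2 (-1.80) and Idh1 (1.07) lie farthest from 0, and the intervals of Tet3, Dnmt1 and Dnmt3b include 0.

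Tet2, a dioxygenase often lost in blood cancers, was the target with clearly measurable RNA and lies on chromosome 3 from 133463679 to 133545139 (GRCm38). Control libraries had 2.57, 4.08 and 3.71 RPKM, and siRNA libraries 0.358, 0.238 and 0.202 RPKM. All siRNA libraries were far below all control libraries, so the labels fit the target. The ratio of the group means was 13.0-fold, and on the scale of log2(RPKM + 1), which understates changes of low genes, the fold change was -1.80 ± 0.13 (SE, adjusted p = 2.88e-05, limma). For comparison, the stromal marker with the largest ratio, Pdgfra, was 10.5-fold lower, at 9.92 against 0.944 RPKM.

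Tet1, on chromosome 10 from 62804570 to 62908996 and known from embryonic stem cells and the germ line, was barely detected. Its values were 0.032, 0.098 and 0.05 RPKM in control and 0.001, 0.01 and 0.001 RPKM in siRNA libraries, where 0.001 is the lowest value listed. Control libraries were all above siRNA libraries, yet the estimated reads behind them were 46 at most. With 3 libraries a group the two-sided exact permutation test gave p = 0.1, the smallest that this design allows. Tet1 made up 0.567% of the summed Tet RPKM in control libraries on average, so a loss of Tet1 changed the Tet total little.

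Tet3, the paralog that was not targeted, on chromosome 6 from 83362373 to 83459084, was the most abundant Tet gene already in control cells. Replicates 1, 2 and 3 had 5.91, 6.39 and 8.80 RPKM in control and 6.96, 7.54 and 8.48 RPKM in siRNA libraries. The groups overlapped, with control replicate 3 the highest of the 6. The log2 fold change was 0.12 ± 0.14 (SE, 95% interval -0.20 to 0.44, adjusted p = 0.508, limma), so a rise of Tet3 was not called, and the interval leaves room for a small change in either direction. As a share of summed Tet RPKM, Tet3 went from 66.6% ± 5.37 (SD, n = 3) to 96.5% ± 1.31 (SD, n = 3), and Tet2 from 32.8% ± 5.06 (SD, n = 3) to 3.43% ± 1.32 (SD, n = 3). The Tet sum was 10.5 ± 2.02 RPKM (SD, n = 3) in control and 7.93 ± 0.693 RPKM (SD, n = 3) in siRNA libraries, and its ranges overlapped. By library it was 8.51, 10.6 and 12.6 RPKM in control and 7.32, 7.78 and 8.68 RPKM in siRNA libraries, with siRNA replicate 3 above control replicate 1. The shift in shares thus came with a lower Tet2 level and no called change in Tet3.

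The 3 genes whose profile was most like that of Tet2 were sought among 891 tested genes with a similar control mean. They were Ctnnd2, a catenin, the matrix protease Mmp3 and the transcription factor Pou3f1. Their root mean square differences from Tet2 over the 6 libraries, in log2 units relative to the control mean, were 0.17, 0.18 and 0.19. Ctnnd2 went from 2.98 to 0.129 RPKM, Mmp3 from 3.70 to 0.524 RPKM and Pou3f1 from 3.03 to 0.297 RPKM.

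Partners and regulators of the TET enzymes were mostly level or lower. Of 11 listed genes, 9 were tested, 4 were called lower (44.4%, beside 29.8% of all genes) and 0 higher by limma (0 also at an unadjusted p under 0.05), and the median log2 fold change was -0.17 against -0.09 for all genes tested. Only 2 were called lower after median ratio scaling or relative to Gapdh, beside 23.0% and 20.1% of all genes. Without control replicate 3, 1 was called higher, beside 15.2% of all genes. Ebf1, a transcription factor reported to recruit Tet2, fell from 5.34 ± 1.04 to 1.28 ± 0.411 RPKM (SD, n = 3; adjusted p = 0.000169, limma). Cxxc5, a CXXC protein related to the DNA-binding part of TET enzymes, fell from 1.40 to 0.667 RPKM (adjusted p = 0.00290, limma). The most abundant was Ddb1, part of the ubiquitin ligase that modifies TET enzymes, at 148 RPKM in control and 124 RPKM in siRNA libraries (adjusted p = 0.00994, limma, 0.108 after median ratio scaling and 0.178 relative to Gapdh). Wt1 was at the lowest listed value in all 6 libraries.

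Among the DNA methyltransferases, Dnmt1, on chromosome 9 from 20907209 to 20959888, was the dominant transcript. Control values were 48.4, 51.2 and 55.0 RPKM, and siRNA values 48.1, 46.3 and 46.7 RPKM. The groups were apart by less than 1 RPKM, and the log2 fold change of -0.13 ± 0.06 (SE) was not called (adjusted p = 0.137, limma).

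Dnmt3a, the main de novo methyltransferase of adult cells, on chromosome 12 from 3806007 to 3914443, moved the other way. It had 16.7, 18.1 and 20.3 RPKM in control libraries, against 21.6, 21.6 and 23.0 RPKM in siRNA libraries. All siRNA values lay above the highest control value, with a log2 fold change of 0.26 ± 0.08 (SE, adjusted p = 0.0324, limma). An antisense gene that shares 133 exonic bases with it, Dnmt3aos, was at the lowest listed value in all 6 libraries. The call of Dnmt3a was fragile, since the adjusted p was between 0.0741 and 0.0945 with any library other than control replicate 3 left out, 0.165 with each library rescaled to an equal sum and 0.199 with values taken relative to Gapdh.

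Dnmt3b, which is high in early embryos, was low here (chromosome 2, 153649450 to 153687730). The control libraries gave 0.333, 0.335 and 0.264 RPKM, and the siRNA libraries 0.396, 0.42 and 0.663 RPKM. The groups did not overlap, with siRNA replicate 3 the highest, but the difference was not called (log2 fold change 0.18 ± 0.08, SE, adjusted p = 0.105, limma) except after quantile normalization (adjusted p = 0.00509). Without siRNA replicate 3 the log2 fold change was 0.10 (adjusted p = 0.289). Of its 50-base stretches, 11.5% also occur in Dnmt3c, a related gene not found in the table, so some of its reads could come from that gene.

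The methyltransferase total was nearly equal in both groups while its makeup differed. The sum of the 3 genes was 70.2 ± 5.08 RPKM (SD, n = 3) in control and 69.6 ± 1.14 RPKM (SD, n = 3) in siRNA libraries. Dnmt1 made up 73.4% ± 0.603 (SD, n = 3) of it in control and 67.6% ± 1.15 (SD, n = 3) in siRNA libraries, and Dnmt3a 26.1% ± 0.686 and 31.7% ± 0.948. These shares compare genes within a library, so a constant factor per library leaves them unchanged, and their ranges did not overlap. The ratio of the methyltransferase sum to the Tet sum was 6.76 ± 0.850 in control and 8.82 ± 0.742 in siRNA libraries.

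Uhrf1, which binds half-methylated DNA behind the replication fork and brings in Dnmt1, was lower (chromosome 17, 56303321 to 56323486). Its level was 22.6, 21.0 and 22.3 RPKM in control libraries, against 14.5, 17.3 and 16.3 RPKM in siRNA libraries. A gap of more than 3 RPKM separated the groups. Its log2 fold change was -0.44 ± 0.08 (SE, adjusted p = 0.00254, limma). Relative to Dnmt1, Uhrf1 went from a ratio of 0.427 ± 0.0337 to 0.341 ± 0.0368 (SD, n = 3). A pseudogene, Gm5648, shares 18.0% of the 50-base stretches of Uhrf1 and was not found in the table, so reads from either could have been counted together.

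Uhrf1 and Dnmt1 are used by dividing cells, and other genes of DNA replication were therefore listed. Of 24 genes of S phase, all tested, 16 were called lower (66.7%) and 1 higher (4.17%), beside 29.8% and 14.7% of all genes, and the median log2 fold change was -0.31 against -0.09 for all genes. The number lower was 11 of 24 after median ratio scaling or quantile normalization, beside 23.0% and 19.8% of all genes. It was 9 relative to Gapdh, beside 20.1% of all genes, and 18 with the replicate number as a block, beside 33.7%. Pola1, a subunit of the polymerase that starts new strands, fell from 10.5 to 6.36 RPKM (adjusted p = 0.00157, limma), and the primase Prim1 from 16.1 to 10.3 RPKM (adjusted p = 0.000282, limma). Pcna, the sliding clamp and the most abundant of the list, was at 202 and 192 RPKM (adjusted p = 0.637, limma). The 1 higher gene, the proliferation marker Mki67, went from 15.1 ± 4.30 to 22.3 ± 3.39 RPKM (SD, n = 3; adjusted p = 0.0378, limma). That call was lost without control replicate 1 (adjusted p = 0.102), control replicate 2 (0.114), siRNA replicate 1 (0.0948) or siRNA replicate 3 (0.105), with no filter on low values (0.0839) and after rescaling to the same sum (0.0822).

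Promoters of the 10 genes were looked up in RefSeq (GRCm38), which had 16 entries covering all 10. The 250 bases before the start held a median of 18.5 CpG dinucleotides over these entries, against 6 over all 32851 entries. Tet2 had 51, more than 99.9% of all entries. Because Uhrf1 and Dnmt1 are replication-linked genes, the letters TTTCCCGC, TTTCGCGC, TTTGCCGC and TTTGGCGC, common forms of the site of E2F factors, were searched on both strands. They occur in 1.86% of all entries, and in 2 of the 16 entries here, 1 of Dnmt1 at chr9:20952824-20952853 on the minus strand and 1 of Uhrf1 at chr17:56304117-56304146 on the plus strand. Each is shown as 30 bases, 5′ to 3′, with the matching letters in capitals, as a description of the sequence and not as a mapped site.
Dnmt1: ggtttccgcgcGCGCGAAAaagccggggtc
Uhrf1: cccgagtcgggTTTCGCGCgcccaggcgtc

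Partners of the methyltransferases were lower more often than higher. Of 14 listed genes, all tested, 9 were called lower (64.3%) and 1 higher (7.14%), beside 29.8% and 14.7% of all genes, and their median log2 fold change was -0.31. These numbers were 7 and 3 after median ratio scaling, beside 23.0% and 20.7% of all genes. After quantile normalization they were 6 and 3, beside 19.8% and 27.2%, and relative to Gapdh 5 and 1, beside 20.1% and 9.70%. Hells, a chromatin remodeller needed for normal DNA methylation, fell from 13.9 ± 1.03 to 7.52 ± 1.18 RPKM (SD, n = 3; adjusted p = 0.000562, limma). Cdca7, which activates Hells, fell from 6.98 to 4.80 RPKM (adjusted p = 0.00227, limma). The most abundant partner, the corepressor Trim28, was at 66.8 and 53.7 RPKM (adjusted p = 0.00236, limma, and 0.0992 relative to Gapdh). Dnmt3l, a catalytically inactive cofactor of Dnmt3a, was the 1 higher gene.

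Dnmt3l had 0.169, 0.204 and 0.217 RPKM in control libraries, against 1.01, 1.08 and 0.653 RPKM in siRNA libraries. Every siRNA library was above every control library by a wide margin, a 4.65-fold ratio of the means, though at a low level. The log2 fold change was 0.67 ± 0.09 (SE, adjusted p = 0.000707, limma).

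Tdg, on chromosome 10 from 82629828 to 82650799, the glycosylase that removes 5-formylcytosine and 5-carboxylcytosine, varied little between replicates. Control libraries had 4.56, 4.69 and 4.69 RPKM, and siRNA libraries 2.91, 3.02 and 2.91 RPKM. The groups were clearly apart, with a 1.58-fold ratio of the means. Its log2 fold change was -0.52 ± 0.08 (SE, adjusted p = 0.000991, limma). Its level is uncertain, because 66.3% of its 50-base stretches also occur in 5 other genes, among them the pseudogene Tdg-ps with 47.4%, and how reads matching several places were counted is not given in the sources used here. Glt8d2 on the opposite strand shares 367 exonic bases with Tdg and was at 0.344 and 0.132 RPKM in the table.

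Base excision repair beyond Tdg had called genes in both directions. Of 24 listed genes, all tested, 5 were called lower (20.8%) and 2 higher (8.33%), beside 29.8% and 14.7% of all genes. The counts became 3 and 4 after median ratio scaling, beside 23.0% and 20.7% of all genes. After quantile normalization they were 2 and 7, beside 19.8% and 27.2%, and relative to Gapdh 2 and 1, beside 20.1% and 9.70%. The median log2 fold change was -0.07 against -0.09 for all genes. The repair polymerase Polb fell from 28.9 ± 1.01 to 18.2 ± 1.74 RPKM (SD, n = 3; adjusted p = 0.000373, limma), and the scaffold Xrcc1 rose from 18.5 ± 1.26 to 24.4 ± 0.359 RPKM (SD, n = 3; adjusted p = 0.00245, limma). Mbd4 and Smug1, glycosylases with substrates that overlap those of Tdg, were at 2.39 and 2.62 RPKM and at 2.53 and 2.33 RPKM in control and siRNA libraries. Neither was called, except Mbd4 as higher after quantile normalization (adjusted p = 0.0246). Both were named after their values were seen.

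Gadd45 genes, stress-response genes proposed to help DNA demethylation, diverged. Gadd45g was the most abundant gene of the base excision list in control libraries and had its largest decrease, from 99.6, 97.2 and 115 RPKM in the control libraries to 29.1, 33.6 and 39.2 RPKM in the siRNA libraries (log2 fold change -1.59 ± 0.11, SE, adjusted p = 2.20e-05, limma). Gadd45b rose from 26.2 to 33.2 RPKM (adjusted p = 0.00496, limma, and 0.0631 relative to Gapdh). Gadd45a, at 42.3 and 39.6 RPKM, was not called (adjusted p = 0.267, limma).

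Idh1, on chromosome 1 from 65158616 to 65186500, encodes the cytosolic enzyme that makes 2-oxoglutarate and NADPH. It was the most abundant of the 10 genes and had their largest increase, with 96.7, 95.9 and 85.1 RPKM in control libraries, against 205, 194 and 187 RPKM in siRNA libraries. The lowest siRNA value was far above the highest control value, a 2.11-fold ratio of the means. On the log2 scale it rose by 1.07 ± 0.07 (SE, adjusted p = 1.77e-05, limma).

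Idh2, its mitochondrial counterpart, on chromosome 7 from 80094846 to 80115392, had 59.8, 54.7 and 49.4 RPKM in control libraries, against 65.4, 68.6 and 57.9 RPKM in siRNA libraries. The groups overlapped, since siRNA replicate 3 lay below control replicate 1. The log2 fold change of 0.23 ± 0.09 (SE) was not called (adjusted p = 0.0736, limma). It was called with the replicate number as a block (0.0160), after median ratio scaling (0.0278) or quantile normalization (0.0143), without control replicate 1 (0.0352) and without siRNA replicate 3 (0.0364). The ratio of Idh1 to Idh2 within a library, which a constant factor per library leaves unchanged, was 1.70 ± 0.0726 in control and 3.06 ± 0.205 in siRNA libraries (SD, n = 3), with no overlap.

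Other genes that make or use 2-oxoglutarate in metabolism moved in both directions. Of 31 listed genes, all tested, 7 were called lower (22.6%) and 9 higher (29.0%), beside 29.8% and 14.7% of all genes, and the median log2 fold change was 0.09 against -0.09 for all genes. After median ratio scaling 5 were lower and 13 higher, beside 23.0% and 20.7% of all genes. After quantile normalization these were 5 and 16, beside 19.8% and 27.2%. Fewer were higher relative to Gapdh, 6, beside 9.70% of all genes. Without siRNA replicate 1 or 2 it was 5 each, beside 11.05% and 10.57% of all genes. Bcat1, a cytosolic aminotransferase that consumes 2-oxoglutarate, fell from 5.21 ± 0.316 to 1.19 ± 0.419 RPKM (SD, n = 3; adjusted p = 7.59e-05, limma), and Phgdh, the first enzyme of serine synthesis, from 7.95 to 3.34 RPKM (adjusted p = 0.00121, limma). The alanine aminotransferase Gpt rose from 1.30 to 2.30 RPKM (adjusted p = 0.00241, limma). Idh3g, a subunit of the NAD-dependent isocitrate dehydrogenase, rose from 57.6 ± 9.40 to 77.1 ± 3.81 RPKM (SD, n = 3; adjusted p = 0.0164, limma), a call lost without siRNA replicate 1 (adjusted p = 0.0567) or 2 (0.0613). The most abundant, the malate dehydrogenase Mdh2, was at 180 and 158 RPKM (adjusted p = 0.0763, limma). It was called lower with the replicate number as a block (adjusted p = 0.0416), without control replicate 3 (0.00446) and after rescaling to the same sum (0.00615).

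**Figure D3:**
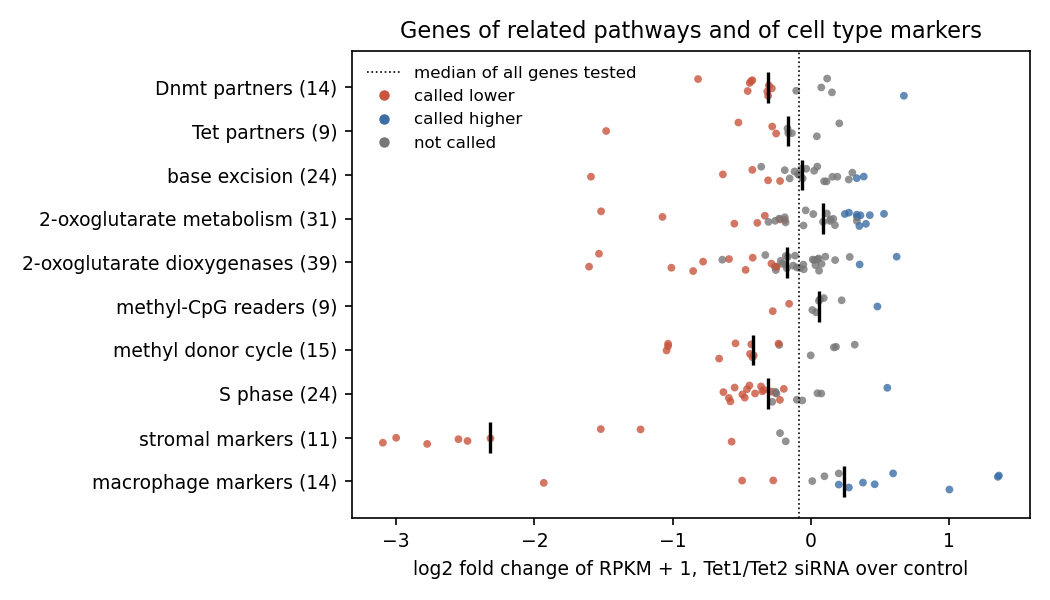
Log2 fold change of RPKM + 1 of each tested gene in lists of related pathways and cell type markers, Tet1/Tet2 siRNA over control, with the number tested in brackets, a bar at each list's median and the median of all genes tested as a dotted line. The median is -2.32 for stromal markers and 0.24 for macrophage markers, and the lists of other marrow lineages are not drawn.

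Dioxygenases that share 2-oxoglutarate with the TET enzymes include histone demethylases, RNA and DNA demethylases and collagen hydroxylases. Of 40 listed genes, 39 were tested, 10 were called lower (25.6%) and 2 higher (5.13%), beside 29.8% and 14.7% of all genes, and the median log2 fold change was -0.18. Over the other fits the number lower was between 8 and 15, beside 19.8% to 33.7% of all genes. The number higher was between 1 and 4, beside 9.70% to 27.2%. The collagen-modifying Plod2 fell from 18.8 to 5.57 RPKM and P4ha3 from 11.1 to 3.29 RPKM (adjusted p = 9.54e-05 and 0.000254, limma). Stromal collagen genes such as Col1a1, at 488 and 72.1 RPKM, moved in the same direction. The lysyl hydroxylase Plod1, the most abundant, was at 175 and 147 RPKM (adjusted p = 0.0132, limma), a call lost without siRNA replicate 1 (0.0553) or 3 (0.0512), after median ratio scaling (0.137) and relative to Gapdh (0.181). The histone demethylase Kdm7a rose from 5.34 to 8.73 RPKM (adjusted p = 0.00342, limma), and the nucleic acid demethylase homolog Alkbh6 from 11.5 to 14.9 RPKM (adjusted p = 0.0151, limma, and 0.0836 relative to Gapdh).

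Genes from the families of proteins that read methylated CpG sites were mostly not called. Of 9 listed genes, all tested, 2 were called lower (22.2%) and 1 higher (11.1%), beside 29.8% and 14.7% of all genes, and the median log2 fold change was 0.06. After quantile normalization 1 was lower and 4 higher, beside 19.8% and 27.2% of all genes. Relative to Gapdh these were 0 and 1, beside 20.1% and 9.70%. Mbd2, the most abundant, fell from 80.1 to 66.0 RPKM (adjusted p = 0.00486, limma, and 0.144 relative to Gapdh), and Zbtb4 rose from 8.96 to 12.9 RPKM (adjusted p = 0.00239, limma). Mbd3 was at 37.5 and 33.5 RPKM (adjusted p = 0.0443, limma). Its call was lost in 9 of 17 other fits, with an adjusted p of up to 0.548.

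The cycle that supplies methyl groups had 10 of 15 tested genes called lower (66.7%, beside 29.8% of all genes) and 0 higher by limma, out of 18 listed, and the median log2 fold change was -0.42 against -0.09 for all genes. At an unadjusted p under 0.05, 0 of its genes were higher as well. With the replicate number as a block or after quantile normalization 2 were called higher, beside 16.9% and 27.2% of all genes. After median ratio scaling, without control replicate 2 or without siRNA replicate 2 it was 1, beside 20.7%, 11.2% and 10.6%. The number lower was between 7 and 11 over the other fits, beside 19.8% to 33.7% of all genes. The mitochondrial folate enzyme Mthfd2 fell from 41.8 ± 1.52 to 19.8 ± 2.56 RPKM (SD, n = 3; adjusted p = 6.76e-05, limma). Nnmt, which spends methyl groups on nicotinamide, fell from 5.93 to 2.40 RPKM (adjusted p = 0.000296, limma), and the most abundant, Ahcyl1, from 54.3 to 40.4 RPKM (adjusted p = 0.00171, limma). Mat1a and Bhmt, genes of the liver, were at the lowest listed value in all 6 libraries.

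The balance of lower and higher calls depended on the scaling. Among all genes tested 3952 were called lower and 1953 higher, which became 3052 and 2738 after median ratio scaling. After quantile normalization they were 2627 and 3607, with a median log2 fold change of 0.06 in place of -0.09. Rescaling to the same sum moved the balance the other way, to 4376 and 1525 with a median of -0.16. With values relative to Gapdh, 2666 were called lower (20.1%) and 1287 higher (9.70%). Relative to the median of all genes, the log2 fold change was -1.71 for Tet2, -0.43 for Tdg, -0.35 for Uhrf1, -0.04 for Dnmt1, 0.21 for Tet3, 0.34 for Dnmt3a and 1.16 for Idh1. The 9 tested genes kept the sign of their fold change under each scaling tried, with 3 called lower in each, and 3 called higher after median ratio scaling and 4 after quantile normalization. In the lists of related pathways together, 63 of 165 tested genes were called lower (38.2%) and 16 higher (9.70%), beside 29.8% and 14.7% of all genes. After median ratio scaling these were 47 (28.5%) and 28 (17.0%), beside 23.0% and 20.7% of all genes, and after quantile normalization 45 (27.3%) and 37 (22.4%), beside 19.8% and 27.2%. The median of the base excision list turned to 0.03 and 0.10 under these scalings, beside -0.007 and 0.06 for all genes.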

How the data were processed

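RNA-seq values of 6 libraries were used, 3 control and 3 Tet1/Tet2 siRNA. The authors mapped reads to GRCm38, and their deposited RPKM values, named FPKM in the methods, came from DNASTAR Lasergene on a linear scale. The annotation release and the use of strand are not given in the sources used here. A column with a p-value per gene by the authors was not used.

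Where a symbol had several rows (37 symbols, none of them among the 10 genes), the row with the highest mean stayed. Genes with a mean of 0.1 RPKM or more (13266) were compared on log2(RPKM + 1), two-sided, in limma 3.58.1 (lmFit, eBayes with trend; R 4.3.3), with Benjamini-Hochberg adjustment over all of them. The steps were tested on simulated data. Tables were handled in Python 3.11.15 with pandas 2.3.3, numpy 2.4.6 and scipy 1.17.1, and plots drawn with matplotlib 3.10.9. Depth was estimated as the read number at which low RPKM values come closest to whole reads for genes with 1 transcript in GENCODE M21. Between 59.1% and 64.7% of these values fell within 0.1 of a whole read, against a median of 13.7% to 15.1% over the read numbers tried. Reads derived from it are estimates, so counts were not tested. Stretches of 50 bases of the longest transcript of each gene were searched in all other GENCODE M21 transcripts.

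The genes and lists were chosen with earlier results of these data known. All 10 genes are named. Of each other list the text names the tested gene with the highest mean and, among those called, the 2 lowest and 2 highest log2 fold changes. Of marker lists it names the sum, the most abundant gene and genes at the lowest listed value. The erythroid sum and 1 erythroid marker are not reported here. The genes most like Tet2 are the 3 with the smallest root mean square difference over the 6 libraries of log2(RPKM + 1) minus its control mean, among genes with a control mean within 1.25-fold of that of Tet2. Other genes named were chosen after their values were seen (Ptprc, Pdgfra, Thy1, Lepr, Lum, Fcgr1, Camp, Pecam1, Mbd4, Smug1 and Gadd45a).

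Groups share replicate numbers. Deviations from the group means correlated across genes with r = 0.149, 0.117 and 0.462 for replicates 1, 2 and 3, all above 0.1, and an alternative fit took the numbers as pairs. The sources used here do not explain the numbers. Crossing control 1 with siRNA 2 gave 0.332 and control 2 with siRNA 1 gave 0.205, both above the same-number values of replicates 1 and 2. Other alternatives were pseudocounts of 0.1 and 0.01, no filter, a mean of 1 RPKM or more, 4 scalings, eBayes without trend, rows with the same symbol summed, each library left out, and an unadjusted p under 0.05 with a fold change over 2.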

Additional observations from a re-analysis of the deposited data

How the results depend on the processing

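Tet2, Tdg, Uhrf1 and Idh1 held their sign with adjusted p below 0.05 in each of 17 other fits, Tet3 and Dnmt1 stayed above 0.05 in each, and Dnmt3a lost its call in 7 of 17. The log2 fold change of Tet2 went from -3.66 to -1.62, that of Tet3 from 0.02 to 0.28. Tet1 was tested only without the filter on low values (adjusted p = 0.0518), and a mean of 1 RPKM or more removed Dnmt3b.

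Calling by unadjusted p (0.05) plus a 2-fold change, 1 of the 10 genes was lower (Tet2) and 1 higher (Idh1), and 873 genes were called in all, 85.6% of them lower. Of the genes called by adjusted p, 66.9% were lower in the reported fit, 52.7% after median ratio scaling and 42.1% after quantile normalization. Of the 10 genes, 2 were called higher in the reported fit, beside 14.7% of all genes. After rescaling to the same sum or relative to Gapdh it was 1, beside 11.5% and 9.70%. After quantile normalization it was 4, beside 27.2%, and with a library left out 1 to 2, beside 10.6% to 15.2%. Related pathway genes called lower were 37 relative to Gapdh (22.4%, beside 20.1% of all genes). Those called higher were 28 after median ratio scaling (17.0%, beside 20.7% of all genes) and 37 after quantile normalization (22.4%, beside 27.2%). The causes were not tested. Summed macrophage markers differed by 8321 RPKM between groups, and by 1439 RPKM without Lyz2, a choice made after seeing the data.

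With the replicate number as a block, Idh2 (log2 fold change 0.23, adjusted p = 0.0160), Mdh2 (-0.18, adjusted p = 0.0416) and Glt8d2 (-0.24, adjusted p = 0.0479) passed 0.05, 6716 genes were called in place of 5905, and no other call among the named genes changed. Pcna turned to 0.042 after median ratio scaling (adjusted p = 0.782) and was called in no fit. Other genes with no call changed sign near 0, Ptprc to -0.054 after rescaling to the same sum and between -0.073 and 0.088 with a library left out, Smug1 to 0.13 after quantile normalization, and Gadd45a to 0.0095 after median ratio scaling and 0.0046 after quantile normalization. Over 811 fits of the 48 tested genes named outside the 10, 762 kept direction and side of 0.05.

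Depth limits Tet1 most, at 0 to 46 estimated reads a library.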
